A study of Mus musculus with 2 samples.

Results

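The genes described here are 8 that naive and memory T cells use, namely Tcf7, Lef1, Bach2, Klf2, Ccr7, S1pr1, Il7r and Bcl2. They were taken by name from the 31017 genes of the deposited matrices, and all 8 were found. Their unique molecular identifiers (UMIs, which count captured RNA molecules) were compared in T, NK and B cells of 2 kinds of mouse mammary tumour.

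Resting T cells keep a programme that holds them ready to circulate and to divide again. The transcription factor TCF1, encoded by Tcf7, and its relative LEF1 maintain naive and stem-like memory cells, and BACH2 restrains effector genes. KLF2 switches on S1pr1, whose product lets T cells leave tissue towards blood and lymph, and the chemokine receptor CCR7 guides them into lymph nodes. The receptor for interleukin 7 (Il7r) and the anti-apoptotic protein BCL2 keep resting cells alive, and strong activation through the antigen receptor usually lowers Klf2, S1pr1, Ccr7 and Il7r.

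The tumours were grown from PyMT-N or PyMT-M cells injected into the mouse mammary gland and were taken after 4 weeks, at 0.7 to 1 cm across. PyMT stands for polyoma middle T, an oncogene, and the labels do not say what N and M stand for, nor give the host strain, age or sex. Viable CD45-positive cells, which are leukocytes, went through a sort into a droplet assay that counts RNA from transcripts' 5′ ends. There was 1 library per line, so nothing could be tested or checked by replicates, and the line cannot be told apart from the animal or the library. Intervals are at 95% and cover counting error only.

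The PyMT-N library held 5020 barcodes with a median of 1955 UMIs, and the PyMT-M library held 7476 with a median of 5069.5. After filters 4793 PyMT-N and 6917 PyMT-M cells were kept, and 60 barcodes occurred in both libraries. T cells were set by UMIs of Cd3d, Cd3e and Cd3g, and numbered 174 in PyMT-N (3.63% of kept cells) and 716 in PyMT-M (10.4%). CD8 cells, with Cd8a or Cd8b1 but no Cd4 UMI, numbered 32 in PyMT-N and 372 in PyMT-M. CD4 cells, the converse, numbered 31 and 28, and T cells with none of these UMIs, called other T cells, numbered 110 and 313. NK cells numbered 34 in PyMT-N and 374 in PyMT-M, and B cells 69 and 54. Levels below are in CPM, a gene's UMIs scaled to the UMIs of its class. All 8 genes of the T cell marker list were detected in each T cell class of both tumours, but the list includes Cd3d, Cd3e and Cd3g, which set the class. NK markers summed to 1100 CPM in PyMT-N against 2616 CPM in PyMT-M T cells, with 6 of 6 genes detected in both. Neutrophil markers summed to 146 CPM in PyMT-N T cells, with 5 of 5 genes detected, and to 0.776 CPM in PyMT-M T cells, with 2 of 5 detected. Macrophage markers summed to 412 CPM in PyMT-N against 483 CPM in PyMT-M T cells, with 6 of 6 detected in both.

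Promoter sequence is shown for 3 genes that the contrasts below turn on and that have an entry in the RefSeq promoter table, namely Klf2, Il7r and Bcl2. By GENCODE annotation of GRCm38 the Klf2 gene spans 72319033 to 72321656 of chromosome 8, Il7r 9505788 to 9530176 of chromosome 15 and Bcl2 106538178 to 106714274 of chromosome 1. Tcf7 and Ccr7 lie on chromosome 11, Lef1 and S1pr1 on chromosome 3 and Bach2 on chromosome 4. The windows are chr8:72318812-72319031 on the plus strand, and chr15:9529907-9529936 and chr1:106714321-106714540 on the minus strand, all in GRCm38.p6. The Klf2 and Bcl2 windows run from 250 to 31 bases before the RefSeq start and the Il7r window from 60 to 31 bases before it, inside the gene as GENCODE draws it. Capitals mark the GC box CCGCCC, which binds SP and KLF factors, in Klf2 and Bcl2 and the ETS core GGAAGT in Il7r, on either strand.
Klf2: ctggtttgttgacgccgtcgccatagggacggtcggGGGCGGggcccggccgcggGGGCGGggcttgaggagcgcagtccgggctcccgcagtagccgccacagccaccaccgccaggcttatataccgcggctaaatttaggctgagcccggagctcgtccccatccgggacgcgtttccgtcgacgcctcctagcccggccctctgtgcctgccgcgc
Il7r: cttttgctcagACTTCCtgtttctggcact
Bcl2: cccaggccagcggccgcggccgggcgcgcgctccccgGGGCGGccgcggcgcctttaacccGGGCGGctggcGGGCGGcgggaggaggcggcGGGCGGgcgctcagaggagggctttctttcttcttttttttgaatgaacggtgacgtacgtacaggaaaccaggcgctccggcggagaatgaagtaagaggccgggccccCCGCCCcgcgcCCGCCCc

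The GC box occurred 2 times in the Klf2 window and 6 times in the Bcl2 window, and 28.5% of 32851 promoter windows of 220 bases held it at least 1 time. The ETS core was found in 16.5% of those windows, and the Klf2 and Bcl2 windows did not hold it. The motif CACCC, bound by KLF factors, was found in 47.8% of windows and in none of the windows of Klf2, Il7r and Bcl2. All windows of Tcf7 and Lef1 held it, and that of Bach2 did not. Motif matches are descriptions of letters, and no binding was measured.

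Summed over all T cells, 5 of the 8 genes had PyMT-N levels of 2-fold or more those in PyMT-M, namely Tcf7, Klf2, Ccr7, S1pr1 and Il7r. Bcl2 alone was 2-fold or more lower. Of 9040 genes with at least 20 UMIs in these cells, 5.18% were 2-fold or more higher in PyMT-N and 9.75% at least 2-fold lower. The median log2 ratio of the 8 genes was 1.20, against -0.12 for all genes measured. Ratios are log2 of PyMT-N over PyMT-M after adding 1 CPM. Il7r was at 205 CPM in PyMT-N T cells (149 UMIs) and 45.8 CPM in PyMT-M T cells (177 UMIs), a log2 ratio of 2.14 (interval 1.84 to 2.49). Tcf7 was at 131 CPM in PyMT-N T cells, against 57.7 CPM in PyMT-M T cells, Klf2 at 451 and 190 CPM, Ccr7 at 77.2 and 29.0 CPM, and S1pr1 at 91.0 and 31.6 CPM. The log2 ratios of Tcf7, Klf2 and Ccr7 were 1.17, 1.24 and 1.38, and those of Lef1 and Bach2 were 0.77 and 0.33. Bcl2 was at 205 CPM in PyMT-N T cells (149 UMIs), against 429 CPM in PyMT-M T cells (1657 UMIs), a log2 ratio of -1.06 (interval -1.31 to -0.82). These sums mix classes in different proportions, since CD8 cells made up 18.4% of PyMT-N and 52.0% of PyMT-M T cells, CD4 cells 17.8% and 3.91%, and other T cells 63.2% and 43.7%. When T cells holding 2 or more UMIs of NK receptor genes were left out, 1 of the 8 genes, Il7r, remained at least 2-fold higher in PyMT-N, with a log2 ratio of 1.74, and Bcl2 stayed lower at -1.08. The classes are therefore given separately.

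**Figure D1:**
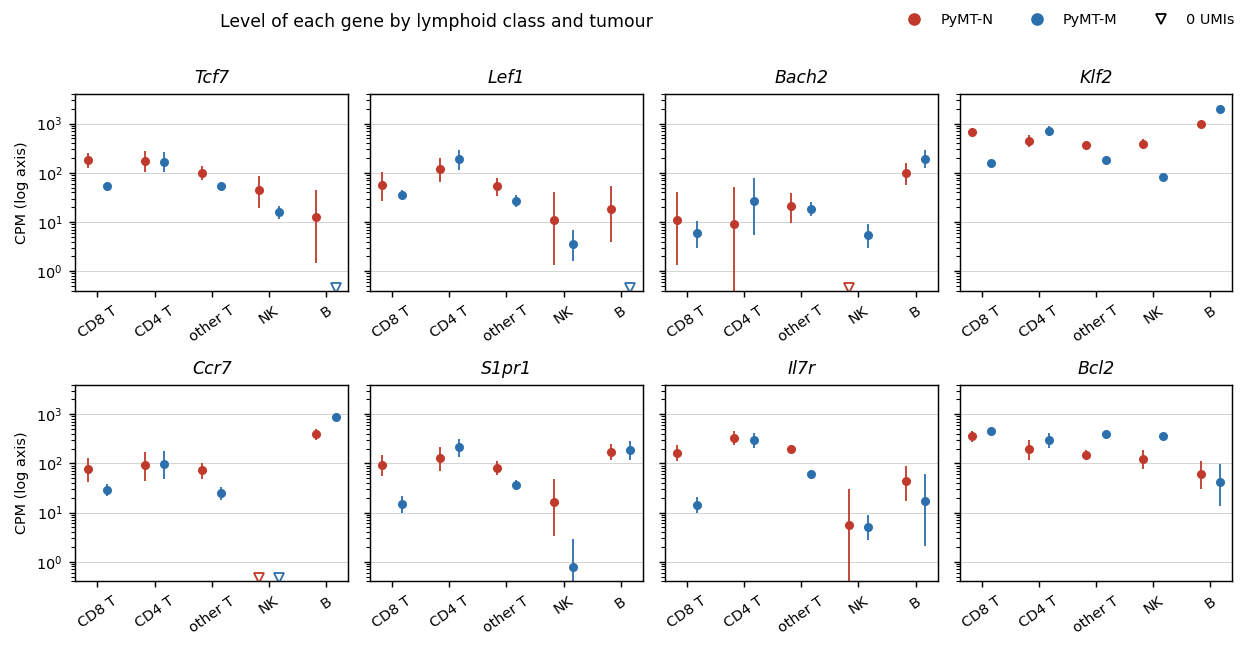
Level of each of the 8 genes (CPM, log axis) in CD8 T, CD4 T, other T, NK and B cells, with PyMT-N in red left of PyMT-M in blue and bars giving 95% Poisson intervals. Open triangles mark 0 UMIs. In CD8 cells Il7r was at 166 CPM in PyMT-N against 14.5 CPM in PyMT-M, while in CD4 cells it was at 331 and 294 CPM.

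Of the 5 lymphoid classes, CD8 T cells had the most of the 8 genes past 2-fold. Of the 7 genes with at least 20 UMIs over both tumours, 5 were 2-fold or more higher in PyMT-N and 0 at least 2-fold lower, against 5.78% and 21.0% of 7077 genes measured. Their median log2 ratio was 1.73, against -0.23 for all genes. The PyMT-N class is small, at 32 cells and 180854 UMIs against 372 cells and 1860839 UMIs in PyMT-M, and median depths were 3678 UMIs per cell in PyMT-N and 3856 in PyMT-M.

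Among the transcription factors, Tcf7 was at 182 CPM in PyMT-N CD8 cells (33 UMIs in 18 cells) and 54.3 CPM in PyMT-M CD8 cells (101 UMIs in 55 cells). The log2 ratio was 1.73, with an interval of 1.14 to 2.33. Klf2 was at 669 CPM in PyMT-N (121 UMIs in 26 cells) and 162 CPM in PyMT-M (301 UMIs in 87 cells), a log2 ratio of 2.04 (interval 1.73 to 2.36). Both factors were thus clear of equality by counting error, whereas Lef1 was not. Lef1 was at 55.3 CPM in PyMT-N (10 UMIs) and 36.0 CPM in PyMT-M (67 UMIs), and its interval of -0.51 to 1.59 spans 0. Bach2 was too sparse to compare, with 2 UMIs in PyMT-N and 11 in PyMT-M.

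Of the receptors, Il7r had the highest ratio of the 7 genes measured. It was at 166 CPM in PyMT-N CD8 cells (30 UMIs in 15 cells) and 14.5 CPM in PyMT-M CD8 cells (27 UMIs in 19 cells), a log2 ratio of 3.43 (interval 2.72 to 4.32). More Il7r UMIs were thus counted in 32 PyMT-N cells than in 372 PyMT-M cells. S1pr1, the exit receptor, was at 94.0 CPM in PyMT-N (17 UMIs) and 15.1 CPM in PyMT-M (28 UMIs), a log2 ratio of 2.57 (interval 1.68 to 3.56). Ccr7, the lymph node homing receptor, was at 77.4 CPM in PyMT-N (14 UMIs in 6 cells) and 28.5 CPM in PyMT-M (53 UMIs in 23 cells), a log2 ratio of 1.41 (interval 0.48 to 2.31).

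Bcl2 did not follow the receptors. It was at 354 CPM in PyMT-N CD8 cells (64 UMIs in 23 cells) and 461 CPM in PyMT-M CD8 cells (857 UMIs in 277 cells), a log2 ratio of -0.38 (interval -0.77 to -0.01). The signs of these 7 ratios held in each of 15 alternative settings, where Il7r ran between 2.70 and 4.18 and Klf2 between 1.53 and 2.28. Macrophage markers summed to 852 CPM in PyMT-N against 451 CPM in PyMT-M CD8 cells, and neutrophil markers to 276 CPM, with 4 of 5 genes detected, and 0 CPM. Neutrophils of either tumour held 0 UMIs of Tcf7, Lef1, Bach2, Ccr7 and Il7r, but Klf2 was at 1014 CPM in PyMT-N against 4947 CPM in PyMT-M neutrophils, and the part of such RNA in the Klf2 ratio was not tested. Cd8a itself was at 299 CPM in PyMT-N against 1102 CPM in PyMT-M CD8 cells. When 2 UMIs of Cd8a and Cd8b1 were required, 21 PyMT-N and 354 PyMT-M cells were left, and the log2 ratios of Tcf7, Klf2, Ccr7, S1pr1 and Il7r were 1.68, 2.11, 1.31, 2.40 and 2.70.

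**Figure D2:**
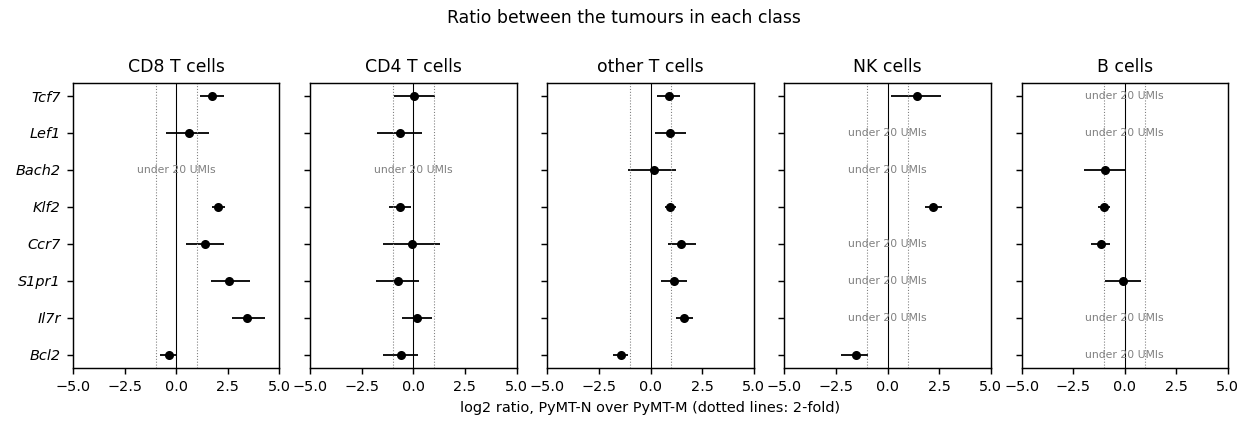
Log2 ratio of PyMT-N over PyMT-M for each gene in 5 cell classes, with 95% intervals of counting error, and dotted lines at 2-fold. In CD8 cells 5 genes lie right of the 2-fold line, in CD4 cells none does, and in B cells Klf2 and Ccr7 lie just left of the lower line.

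The share of cells with a UMI was compared after thinning each cell to 1000 UMIs, since depth sets how often a gene is seen. Klf2 was seen in 46.9% of 32 PyMT-N CD8 cells (interval 29.1 to 65.3) and in 12.2% of 369 PyMT-M CD8 cells (9.04 to 16.0). Tcf7 was seen in 31.2% of PyMT-N CD8 cells (16.1 to 50.01) and 3.79% of PyMT-M CD8 cells (2.09 to 6.28), and Il7r in 8 of 32 PyMT-N (11.5 to 43.4) and 2.17% of PyMT-M cells (0.941 to 4.23). For these 3 genes the intervals do not overlap, but they cover counting error within 1 library each. How often the intervals of other genes lie apart was not counted. Bcl2 was seen in 34.4% of PyMT-N (18.6 to 53.2) and 39.0% of PyMT-M CD8 cells (34.0 to 44.2), which overlap. Without thinning, the shares of CD8 cells with Il7r were 46.9% in PyMT-N and 5.11% in PyMT-M, and with Klf2 81.2% and 23.4%. In macrophages, which should lack Tcf7, it was seen after thinning in 0 of 575 PyMT-N and in 1 of 3501 PyMT-M cells. Il7r was seen in 1.91% of PyMT-N and 0.286% of PyMT-M macrophages, whose median depths were 4778 and 4599 UMIs. In each tumour the Il7r share of CD8 cells thus lay above that of macrophages of the same library, whose intervals were 0.959 to 3.40 in PyMT-N and 0.137 to 0.525 in PyMT-M.

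The number of the 8 genes that a cell held was compared in the same thinned cells. At least 2 genes were seen in 16 of 32 PyMT-N CD8 cells (interval 31.9% to 68.1%) and in 9.49% of PyMT-M CD8 cells (35 of 369, interval 6.70 to 12.9). At least 3 were seen in 31.2% of PyMT-N CD8 cells and 3.79% of PyMT-M CD8 cells. CD4 cells showed no such gap, with at least 2 genes in 29.0% of 31 PyMT-N cells (14.2 to 48.0) and 35.7% of 28 PyMT-M cells (18.6 to 55.9). In all T cells the shares with at least 2 genes were 32.4% in PyMT-N and 13.2% in PyMT-M. The shares of all T cells move with the thinning depth, as the closing section gives, but PyMT-N was the higher at each depth. Other thinning depths were run for all T cells only.

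**Figure D3:**
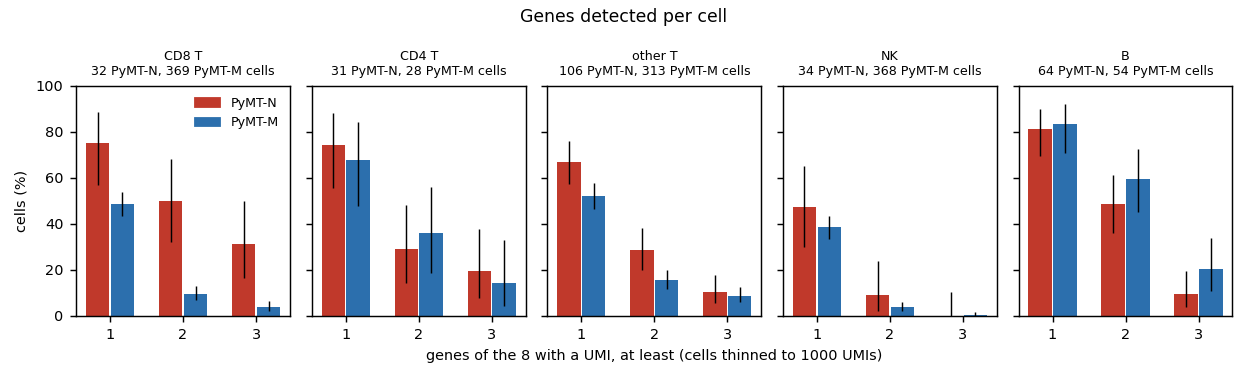
Percent of cells in which at least 1, 2 or 3 of the 8 genes had a UMI, after thinning to 1000 UMIs, with PyMT-N bars in red left of PyMT-M bars in blue and exact 95% intervals. CD8 cells with at least 2 genes were 16 of 32 in PyMT-N and 35 of 369 in PyMT-M, whereas CD4 cells made up 29.0% and 35.7%.

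PyMT-M CD8 cells could be divided by Pdcd1, which encodes the inhibitory receptor PD-1 of activated and exhausted T cells. A Pdcd1 UMI was found in 1 of 32 PyMT-N CD8 cells and in 151 of 372 PyMT-M CD8 cells. Within PyMT-M, the 221 cells without Pdcd1 held 52 UMIs of Ccr7, 27 of S1pr1 and 24 of Il7r in 1118508 UMIs. The 151 cells with Pdcd1 held 1, 1 and 3 in 742331 UMIs. Klf2 was at 233 CPM in PyMT-M cells without Pdcd1 and 53.9 CPM in those with it, and the log2 ratio of cells without over cells with Pdcd1 was 2.09 (interval 1.63 to 2.63). The corresponding levels of Tcf7 were 68.0 and 33.7 CPM, a log2 ratio of 0.99 (0.34 to 1.73), and those of Lef1 46.5 and 20.2 CPM, a ratio of 1.16 (0.35 to 2.14). Bcl2 was at 487 CPM in cells without Pdcd1 and 420 CPM in cells with it, a log2 ratio of 0.21 (interval 0.01 to 0.42). Of the 53 Ccr7 and 28 S1pr1 UMIs of PyMT-M CD8 cells, 1 each thus came from cells with Pdcd1, whereas 312 of 857 Bcl2 UMIs did.

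The exhaustion gene Tox was at 77.8 CPM in PyMT-M cells without Pdcd1 and 216 CPM in those with it, and Lag3 at 64.4 and 179 CPM. PyMT-N cells without Pdcd1 held Tox at 22.3 CPM (4 UMIs) and Lag3 at 5.58 CPM (1 UMI). Cells without Pdcd1 were thus not alike in the tumours. Between the tumours, CD8 cells without Pdcd1 kept 4 of the 5 ratios at 2-fold or more. The share over all genes was not computed for these cells. Il7r was at 167 CPM in PyMT-N against 21.5 CPM in PyMT-M cells without Pdcd1, a log2 ratio of 2.91 (interval 2.14 to 3.80). The ratios of S1pr1, Klf2 and Tcf7 were 1.93, 1.53 and 1.43. Ccr7 dropped below 2-fold, at 78.2 CPM in PyMT-N against 46.5 CPM in PyMT-M, a log2 ratio of 0.74 (interval -0.22 to 1.62). Dividing cells by a UMI also divides them by depth, with median depths of 4226 UMIs in PyMT-M cells without Pdcd1 and 3601 in those with it.

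**Figure D4:**
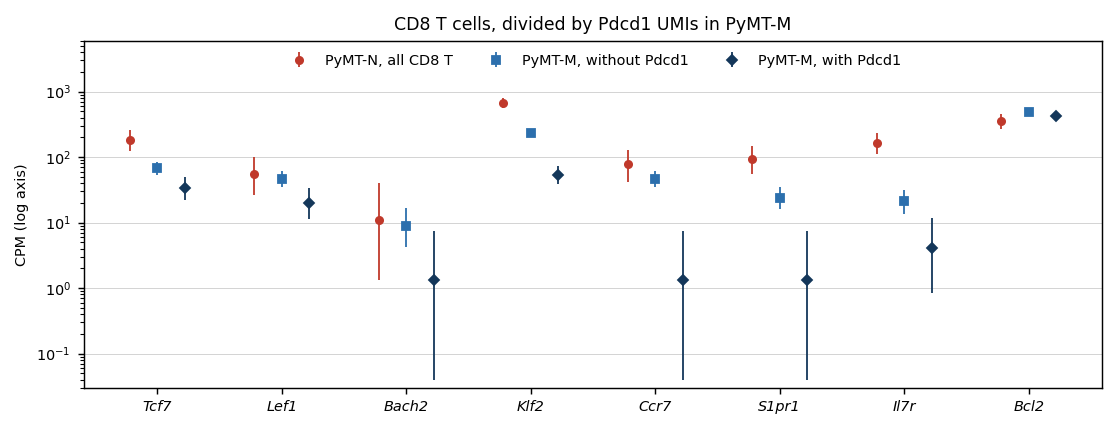
Level of the 8 genes (CPM, log axis, 95% Poisson intervals) in all PyMT-N CD8 cells, PyMT-M CD8 cells without a Pdcd1 UMI and PyMT-M CD8 cells with one. Klf2 was at 669, 233 and 53.9 CPM in these groups, and Bcl2 at 354, 487 and 420 CPM.

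CD8 cells with Tcf7 in PyMT-M held more of the other traffic genes than CD8 cells without it. In the 55 PyMT-M cells with a Tcf7 UMI, Ccr7 was at 120 CPM, against 10.9 CPM in the 317 without, a log2 ratio of 3.34 (interval 2.59 to 4.38). Lef1 was at 110 and 21.8 CPM, Klf2 at 452 and 106 CPM, and Il7r at 49.8 and 7.69 CPM, with log2 ratios of 2.28, 2.08 and 2.55. Slamf6, a surface marker of stem-like exhausted cells, was at 66.4 CPM in cells with Tcf7 and 10.9 CPM without, and the cytotoxic granule gene Gzma at 23.2 and 498 CPM. Median depths were 4670 UMIs in cells with Tcf7 and 3805 UMIs in those without. After thinning, Klf2 was seen in 10 of 14 PyMT-M CD8 cells with Tcf7 (71.4%, interval 41.9 to 91.6) and in 35 of 355 without (9.86%, interval 6.96 to 13.4).

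In PyMT-N the division by Tcf7 did not separate Klf2, Il7r or S1pr1. Klf2 was at 733 CPM in the 18 PyMT-N CD8 cells with Tcf7 and 568 CPM in the 14 without, a log2 ratio of 0.37 (interval -0.20 to 0.95). Il7r was at 145 and 199 CPM and S1pr1 at 63.4 and 142 CPM, with intervals that span 0. Ccr7 and Lef1 had the direction seen in PyMT-M, on few UMIs. Ccr7 was at 109 CPM (12 UMIs) in PyMT-N cells with Tcf7 and 28.4 CPM (2 UMIs) in those without. The corresponding levels of Lef1 were 81.5 CPM (9 UMIs) and 14.2 CPM (1 UMI), and both intervals span 0. Gzma was at 9.05 CPM in PyMT-N cells with Tcf7 (1 UMI) and 341 CPM in those without (24 UMIs). In PyMT-M, where the level per UMI was higher with Tcf7, both kinds of cell still held these genes, with 136 Klf2 UMIs in cells with Tcf7 and 165 in those without, 13 and 15 of S1pr1, and 15 and 12 of Il7r. The difference between the tumours in this division was not tested.

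In CD4 T cells none of the 7 genes with at least 20 UMIs was 2-fold apart in either direction, where 5.36% of 1474 genes were 2-fold or more higher in PyMT-N and 11.5% at least 2-fold lower. Tcf7 was at 175 CPM in PyMT-N CD4 cells (19 UMIs) and 169 CPM in PyMT-M CD4 cells (19 UMIs), a log2 ratio of 0.04 (interval -0.95 to 1.04). Il7r was at 331 CPM in PyMT-N (36 UMIs) and 294 CPM in PyMT-M (33 UMIs), a log2 ratio of 0.17 (interval -0.55 to 0.90). Ccr7 was at 92.0 and 98.1 CPM. The tumours were thus close for these genes, although 31 and 28 cells leave wide intervals that still allow differences near 2-fold.

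Klf2 was at 451 CPM in PyMT-N against 705 CPM in PyMT-M CD4 cells, a log2 ratio of -0.64 whose interval of -1.19 to -0.11 lies below 0. Lef1 was at 120 and 187 CPM, S1pr1 at 129 and 214 CPM, and Bcl2 at 193 and 294 CPM, each lower in PyMT-N with an interval that spans 0. When 2 Cd4 UMIs were required, 5 PyMT-N and 11 PyMT-M cells were left, and the log2 ratio of Klf2 was -2.89. CD4 cells with a Foxp3 UMI, the factor of regulatory T cells, numbered 6 in PyMT-N and 2 in PyMT-M and held 0 UMIs of Tcf7, Ccr7 and Bcl2. In the remaining CD4 cells the log2 ratio of Klf2 was -0.37.

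The order of the T cell classes differed between the tumours. In PyMT-M, CD8 cells lay below CD4 cells for Il7r (14.5 against 294 CPM), S1pr1 (15.1 against 214 CPM), Klf2 (162 against 705 CPM), Lef1 (36.0 against 187 CPM) and Tcf7 (54.3 against 169 CPM). The log2 ratios of CD8 over CD4 were -4.25, -3.74, -2.12, -2.35 and -1.62, with intervals clear of 0. In PyMT-N, CD8 and CD4 cells were within counting error for Tcf7 (182 and 175 CPM), Lef1 (55.3 and 120 CPM), Ccr7 (77.4 and 92.0 CPM) and S1pr1 (94.0 and 129 CPM). Il7r remained lower in PyMT-N CD8 cells, at 166 CPM against 331 CPM in CD4 cells, a log2 ratio of -0.99 (interval -1.75 to -0.26). Klf2 had the other sign in PyMT-N, at 669 CPM in CD8 cells against 451 CPM in CD4 cells, a log2 ratio of 0.57 (interval 0.08 to 1.08). Bcl2 was higher in CD8 than in CD4 cells of both tumours, by log2 ratios of 0.87 (0.14 to 1.66) in PyMT-N and 0.64 (0.14 to 1.19) in PyMT-M.

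Other T cells gave 3 of 8 genes at least 2-fold higher in the PyMT-N cells and 1 at least 2-fold lower, where 5.89% and 11.6% of 7636 genes were. Il7r was at 193 CPM in PyMT-N against 62.1 CPM in PyMT-M, a log2 ratio of 1.62 (interval 1.21 to 2.05). Ccr7 was at 72.1 and 24.9 CPM, S1pr1 at 81.4 and 36.6 CPM, and Bcl2 at 149 and 404 CPM, with log2 ratios of 1.49, 1.13 and -1.43. This class was mixed in different ways in the tumours. Cells with 2 or more UMIs of Ncr1, Klrb1c, Klre1 and Klra8, genes of NK receptors, made up 9 of 110 PyMT-N and 195 of 313 PyMT-M other T cells. Those with a UMI of a gamma-delta T cell gene and fewer NK UMIs made up 39 and 50, and those with neither 62 and 68. A gamma-delta UMI does not set the lineage of a cell. Tcrg-C2, 1 of these genes, was at 218 CPM in PyMT-M CD8 cells and 72.2 CPM in PyMT-M other T cells.

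Within these 3 groups the contrasts were different from the sum. In cells with neither set of markers, Klf2 was at 486 CPM in PyMT-N against 1020 CPM in PyMT-M, a log2 ratio of -1.07 (interval -1.45 to -0.70). S1pr1 was at 108 and 231 CPM, a log2 ratio of -1.09 (-1.95 to -0.31), while Tcf7 at 174 and 219 CPM and Il7r at 258 and 271 CPM had intervals that span 0. Regulatory T cell markers summed to 498 CPM in PyMT-N against 162 CPM in PyMT-M other T cells, with 4 of 4 genes detected in both, and their part in these ratios was not tested. The other T cells with a Foxp3 UMI, 17 in PyMT-N and 5 in PyMT-M, held Klf2 at 872 CPM (37 UMIs) and 450 CPM (5 UMIs). Both signs of Klf2 were seen among the groups. In cells with a gamma-delta UMI it was at 317 CPM in PyMT-N against 95.1 CPM in PyMT-M (log2 ratio 1.73). In cells with NK UMIs it was at 216 and 53.9 CPM (1.98). The PyMT-M cells with NK UMIs held 0 UMIs of Ccr7, 5 of S1pr1 and 15 of Il7r in 1374225 UMIs. Without cells holding NK UMIs, the log2 ratios of other T cells were -0.08 for Ccr7, -0.35 for S1pr1, -0.45 for Klf2, -0.26 for Tcf7 and 0.20 for Il7r.

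Bcl2 kept its direction in all 3 groups of other T cells. It was at 114 CPM in PyMT-N against 348 CPM in PyMT-M cells with neither marker set. In cells with a gamma-delta UMI it was at 180 and 433 CPM, and in cells with NK UMIs at 148 and 408 CPM. The log2 ratios were -1.60, -1.27 and -1.45. A single PyMT-N cell with a gamma-delta UMI held 12 of the 31 Ccr7 UMIs of PyMT-N other T cells. Without the cell with most Ccr7 UMIs in each tumour the ratio of the class was 0.97. The 3 mature dendritic cell markers beside Ccr7 summed to 81.4 CPM in PyMT-N against 1.59 CPM in PyMT-M other T cells, and their part in the Ccr7 ratio was not tested.

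**Figure D5:**
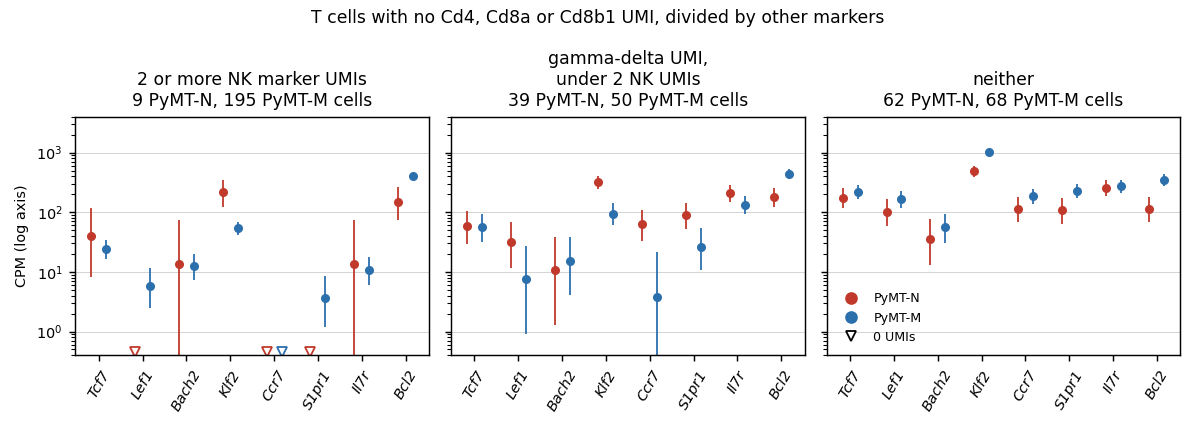
Level of the 8 genes (CPM, log axis, 95% Poisson intervals) in other T cells with 2 or more NK UMIs, with a gamma-delta UMI, or with neither, PyMT-N in red left of PyMT-M in blue. Klf2 was higher in PyMT-N in the first 2 groups and lower in the third, at 486 CPM against 1020 CPM, and Bcl2 was lower in PyMT-N in all 3.

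NK cells, cytotoxic lymphocytes without an antigen receptor, shared the opposite behaviour of Klf2 and Bcl2. Klf2 was at 386 CPM in PyMT-N NK cells (70 UMIs in 22 of 34 cells) and 81.8 CPM in PyMT-M NK cells (208 UMIs in 61 of 374 cells), a log2 ratio of 2.22 (interval 1.82 to 2.63). Bcl2 was at 121 CPM in PyMT-N (22 UMIs in 13 cells) and 357 CPM in PyMT-M (908 UMIs in 303 cells), a log2 ratio of -1.55 (interval -2.24 to -0.95). Of the 3 genes with at least 20 UMIs, 2 were 2-fold or more higher in PyMT-N and 1 at least 2-fold lower, where 5.84% and 20.5% of 7843 genes were. The other was Tcf7, at 44.1 CPM in PyMT-N (8 UMIs, 6 of them in 1 cell) and 15.7 CPM in PyMT-M, and its ratio of 1.43 turned to -0.29 without the cell with most UMIs in each tumour. Ccr7 had 0 UMIs in both tumours, which allows up to 16.5 CPM in PyMT-N against 1.18 CPM in PyMT-M NK cells (3 UMIs). Il7r, which conventional NK cells largely lack, had 1 UMI in PyMT-N and 13 in PyMT-M.

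B cells served as a class with their own use of these genes, since B cells also home by CCR7 and S1PR1 and depend on BACH2. Tcf7 had 2 UMIs in PyMT-N and 0 in PyMT-M B cells, and Lef1 3 and 0. Of the 4 genes with at least 20 UMIs, 0 were 2-fold or more higher in PyMT-N and 2 at least 2-fold lower, where 7.86% and 11.1% of 1794 genes were. Klf2 was at 984 CPM in PyMT-N (159 UMIs) and 1987 CPM in PyMT-M B cells (236 UMIs), a log2 ratio of -1.01 (interval -1.31 to -0.72). Ccr7 was at 396 CPM in PyMT-N (64 UMIs) and 884 CPM in PyMT-M B cells (105 UMIs), a log2 ratio of -1.16 (interval -1.63 to -0.70). Bach2 was at 99.0 and 194 CPM (-0.96, interval -1.99 to 0.02) and S1pr1 at 173 and 185 CPM (-0.10, interval -0.95 to 0.78). Klf2 and Ccr7 in B cells thus had the sign opposite to that in CD8 cells, and macrophage markers in B cells summed to 2383 CPM in PyMT-N against 1086 CPM in PyMT-M. Plasmacytoid dendritic cell markers summed to 0 CPM in PyMT-N B cells and to 328 CPM in PyMT-M B cells, with 0 of 2 and 2 of 2 genes detected (Siglech 0 and 35 UMIs). The part of either cell type in the ratios of the B cells was not tested.

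By gene, the order of classes was as follows. Tcf7 in PyMT-M ran from CD4 cells (169 CPM) to CD8 and other T cells (54.3 and 54.1 CPM, within counting error), NK cells (15.7 CPM) and B cells (0 UMIs). Bach2 was highest in B cells of both tumours and at most 26.8 CPM in any T cell class. Bcl2 in PyMT-M was at 461 CPM in CD8, 404 CPM in other T, 357 CPM in NK and 294 CPM in CD4 cells, and at 42.1 CPM in B cells (5 UMIs). Ccr7 and Klf2 also came from cells outside the lymphoid classes. Macrophages held Klf2 at 227 CPM in PyMT-N against 565 CPM in PyMT-M. Cells set by mature dendritic cell markers held Ccr7 at 1909 CPM in PyMT-N (5 of 8 cells). The PyMT-M level was 1059 CPM (29 of 51 cells). These cells also carried markers of other cell types. In PyMT-M their macrophage, epithelial and stromal markers summed to 5283, 3600 and 1967 CPM, against 1807 CPM for mature dendritic markers. In PyMT-N neutrophil markers summed to 2241 CPM, against 1366 CPM. Which of these cell types held the Ccr7 was not tested. Summed over all kept cells, Klf2 was at 604 CPM in PyMT-N against 506 CPM in PyMT-M, and Tcf7 at 8.10 and 7.20 CPM, so that neither CD8 contrast was visible in the sum.

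Across the 10 groups made by the 5 lymphoid classes of each tumour, the closest pairs by log2 level were Bach2 with Ccr7 (Pearson r = 0.91) and Tcf7 with Lef1 (0.90). Klf2 went with S1pr1 (r = 0.87), its known target in mouse T cells, and with Ccr7 (0.86), and Il7r with Lef1 (0.88). Bcl2 ran against Klf2 (r = -0.75) and Bach2 (-0.71). These values are descriptions, as the groups of a tumour share a library. Bach2 had 2 UMIs in PyMT-N CD8, 1 in PyMT-N CD4 and 0 in PyMT-N NK cells. B cells of both tumours were the highest groups for Bach2 and for Ccr7. How far the B cells set the r values of Bach2 was not tested. Of 7855 other genes, Klf3, Sgms1 and Cpm were most like S1pr1 (0.96, 0.93 and 0.93), and Grb2 and Clk1 were among those most like Klf2 (0.94 and 0.91). The closest to Tcf7 were Naca, Mthfd2 and Emb (0.96, 0.96 and 0.94), to Lef1 Rnf125, Igfbp4 and Rnf19a (0.96, 0.96 and 0.95), and to Il7r Ltb4r1, Ass1 and Tnfrsf4 (0.97, 0.96 and 0.94). For Ccr7 they were Ppdpf, Sh3bp5 and Add3 (0.98, 0.97 and 0.95), for Bach2 Treml2, Cd37 and Pou2f2 (0.95, 0.95 and 0.95), and for Bcl2 Cotl1, Psma2 and Zdhhc7 (0.97, 0.95 and 0.94).

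Lists of related genes place the 8 in their setting. Over all genes measured, 5.18% were 2-fold or more higher and 9.75% at least 2-fold lower in PyMT-N T cells. The shares were 5.78% and 21.0% in CD8 cells, and 5.36% and 11.5% in CD4 cells. Median log2 ratios of all genes were -0.12 in all T, -0.23 in CD8 and -0.09 in CD4 cells. Of 16 other naive and memory genes, 15 had at least 20 UMIs in all T cells, 4 were 2-fold or more higher in PyMT-N and 0 lower, with a median log2 ratio of 0.69. In CD8 cells 6 of 15 were higher and 0 lower, with a median of 0.83. In CD4 cells 6 were measured, of which 0 were higher and 1 lower. The 4 of all T cells included Klf3, Dapl1 and Slamf6. Klf3, which encodes a factor related to KLF2, was at 78.6 CPM in PyMT-N against 21.99 CPM in PyMT-M T cells, and Dapl1, a naive T cell transcript, at 20.7 and 7.24 CPM. The costimulatory receptor genes Cd28 and Cd27 lay under 2-fold, at 119 and 73.2 CPM and at 74.4 and 113 CPM.

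Genes of interleukin 7 signalling and of the BCL2 family did not share the pattern of Il7r. Their median log2 ratio in all T cells was -0.10, against -0.12 for all genes. In all T cells 0 of 15 were 2-fold or more higher in PyMT-N and 1 was lower. That 1 gene was Bcl2l11, which encodes the pro-apoptotic BCL2 partner BIM, at 22.1 CPM in PyMT-N against 86.4 CPM in PyMT-M, a log2 ratio of -1.92 (interval -2.79 to -1.25). Bcl2 and its opponent Bcl2l11 were thus both lower in PyMT-N. Il2rg, the chain that IL7R pairs with, was at 291 and 499 CPM, Pim1 at 134 and 81.5 CPM and Stat5a at 23.4 and 12.2 CPM, with 10 of the 17 PyMT-N Stat5a UMIs in 1 cell. Of 11 partner genes of TCF1 and LEF1, 4 had at least 20 UMIs, and none of these was 2-fold apart in all T cells. They encode beta-catenin (Ctnnb1, log2 ratio 0.02) and the corepressors Tle3 (0.15), Tle4 (-0.45) and Aes (-0.58). In CD8 cells the median log2 ratio of the 4 was -0.87, against -0.23 for all genes. There 2 of the 4 were at least 2-fold lower in PyMT-N, where 21.0% of all genes were. The 2 were Tle3, with 3 UMIs in PyMT-N and 86 in PyMT-M, and Tle4, with 2 and 47, and both intervals span 0.

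Exhaustion and effector genes were mostly lower in PyMT-N when summed over all T cells, a sum that mixes the classes in different proportions. Over all genes, 5.18% were at least 2-fold higher and 9.75% lower in all T cells. In CD8 cells 21.0% and in CD4 cells 11.5% were lower. Of 12 exhaustion genes in all T cells, 9 were at least 2-fold lower and 0 higher, with a median log2 ratio of -1.80, and in CD8 cells 9 of 11 were lower, with a median of -2.53. Lag3 was at 6.89 CPM in PyMT-N against 88.5 CPM in PyMT-M T cells and Tigit at 56.5 and 235 CPM. Havcr2 and Ctla4 went the other way under 2-fold, at 8.27 and 5.17 CPM and at 128 and 71.6 CPM. Of 12 effector genes 7 were lower and 2 higher in PyMT-N T cells. Gzmk was at 8.27 and 236 CPM and Ccl5 at 2708 and 10127 CPM, while Klrg1 was at 55.1 and 25.3 CPM and Cx3cr1 at 15.2 and 3.88 CPM. In CD4 cells 5 effector genes were measured, of which 1 was higher and 2 lower, with a median log2 ratio of 0.92, and 1 exhaustion gene was measured. Of 11 measured genes of tissue residency and exit 4 were lower (Itgae, Itga1, Cxcr3 and Zfp683) and 1 higher. The residency integrin Itga1 was at 16.5 and 74.0 CPM, and the 1 higher gene was the chemokine receptor Cxcr4, at 110 and 20.4 CPM. Rgs1 was at 695 and 1161 CPM and Rgs2 at 114 and 74.2 CPM.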

How the data were processed

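The deposited files hold raw UMI counts per gene and barcode for 1 library per tumour line, with no normalisation. The submitters' processing notes name Cell Ranger, Seurat and the build mm10. Software version 3.1.0 made the matrices, per the file headers. The cell-calling step and the gene annotation are not given in the sources used here.

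Barcodes with fewer than 200 genes or with mitochondrial UMIs above 10% were left out, 26 in PyMT-N and 119 in PyMT-M. Scrublet (scanpy 1.11.5) marked 0 doublets by its own threshold, so the top-scoring cells were removed to a rate of 0.8% per 1000 barcodes, 201 in PyMT-N and 440 in PyMT-M. T cells held at least 2 UMIs of Cd3d, Cd3e and Cd3g and at most 1 B UMI. NK cells held at least 2 UMIs of Ncr1, Klrb1c, Klre1 and Klra8, and B cells at least 2 of a B cell marker list that includes Cd79a, Cd79b and Ms4a1, with at most 1 UMI of the other lineages. All held at most 1% of UMIs from Lyz2, C1qa, C1qb, C1qc, Csf1r, S100a8 and S100a9. No clusters and no annotation by the authors were used.

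UMIs were summed per class and tumour and scaled to CPM. Levels have exact Poisson, shares exact Clopper-Pearson and ratios exact conditional binomial intervals, at 95%. The interval of a ratio was computed without the pseudocount of 1 CPM. Genes were measured with 20 or more UMIs over both tumours, and with 1 library per line 2-fold replaces a test. UMIs of a cell are independent molecules only in part, so intervals cover counting error alone. Each cell was thinned to 1000 UMIs by 1 fixed draw, leaving out shallower cells, among T cells 4 in PyMT-N and 3 in PyMT-M. Likeness is Pearson's r of log2(CPM + 10) over 10 groups, among genes with 50 or more UMIs. Intervals were tested on simulated data in which 200 genes differed 4-fold. The simulated counts were independent, as the intervals assume. They could not show how the intervals hold where many UMIs of a gene lie in 1 cell. The genes, lists and the rule for named genes (the 8 genes, the highest and the most changed genes of each list, at most 4, and the 3 most alike) were chosen with earlier results of these data known. The Tcf7, Pdcd1, Foxp3 and other T cell divisions, with the genes given beside them, were chosen after values were seen, as were Slamf6, Itgae, Cxcr3 and Zfp683 where a count names them. Some genes of the lists are not reported here. Computations ran in Python 3.11.15 (scipy 1.17.1, numpy 2.4.6, pandas 2.3.3, matplotlib 3.10.9). Promoter sequences are from RefSeq (GRCm38.p6), where 6 of the 8 genes matched 10 windows.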

Additional observations from a re-analysis of the deposited data

Results flagged for a closer look

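Klf2 and Ccr7 had ratios between the tumours of opposite sign in different lymphoid classes, with intervals clear of 0 on each side as reported. The log2 ratio of Klf2, PyMT-N over PyMT-M, was 2.04 in CD8 T cells and 2.22 in NK cells, and -1.01 in B cells. That of Ccr7 was 1.41 in CD8 T cells and 1.49 in other T cells, and -1.16 in B cells. The Ccr7 ratio of other T cells turned to -0.080 without cells holding 2 or more NK UMIs and was 0.97 without the cell with most Ccr7 UMIs in each tumour. In CD8 cells without Pdcd1 the Ccr7 ratio was 0.74, with an interval of -0.22 to 1.62. The Klf2 ratio of B cells fell under 2-fold in 6 of 14 alternative settings and came to -0.65 at the closest. That of Ccr7 in B cells did so in 4 of 14 and came to -0.54, and neither turned its sign. With 1 library per line these differences between classes were not tested.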

How the results depend on the processing

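No paired analysis was possible because there was 1 library per line. In all T cells the count of genes at least 2-fold higher in PyMT-N, 5 as reported, became 1 without T cells holding 2 or more NK UMIs. The count at least 2-fold lower, 1 as reported (Bcl2), became 0 under median-ratio scaling, under CPM without ribosomal, mitochondrial and T cell receptor genes, and with T cell classes weighted by the PyMT-M mix, where Bcl2 had a log2 ratio of -0.78. The share of all T cells with at least 2 of the 8 genes was 17.2% in PyMT-N and 7.40% in PyMT-M thinned to 500 UMIs, 42.9% and 19.2% thinned to 1500, and 63.2% and 38.1% without thinning. Among ratios past 2-fold as reported, signs turned for Ccr7 (-0.080) and S1pr1 (-0.35) in other T cells without those holding NK UMIs, and for Tcf7 in NK cells (-0.29) without the cell with most UMIs. Among ratios under 2-fold, those of Klf2 (-0.45), Tcf7 (-0.26), Lef1 (-0.38) and Bach2 (-0.63) in other T cells also turned without cells holding NK UMIs, and in other settings so did those of Tcf7 and Ccr7 in CD4 cells and S1pr1 in B cells, which lay near 0. In CD8 cells the count of genes at least 2-fold higher was 4 to 6 in all settings run. Of 20 ratios past 2-fold, 8 stayed past it in every setting tried. The settings without NK UMIs, Pdcd1, Foxp3 or the top cell, and the weighting by mix, were chosen after seeing the data. With 32 PyMT-N CD8 and 31 CD4 cells, genes under 20 UMIs could not be compared.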
